A study of Mus musculus with 20 samples.

Results

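Granulosa cells (GCs), which surround the oocyte and form the inner wall of a follicle in the ovary, were compared between diestrus and estrus in mice of the unselected ctrl line. The members of the comparison were chosen by their labels, and they are 10 of the 20 samples of the series, 5 ctrl mice in diestrus and 5 ctrl mice in estrus. The other 10 samples, 5 in each stage, came from the FL1 line, which was bred from the same founders for high fertility, and they are used here only for comparison. No treatment of the mice is described in the sources used here, and the groups differ in line and stage. The mice were 77 ± 5 days old. Estrus was assigned when a vaginal smear held only cornified epithelial cells, and diestrus when it held only leucocytes. From each mouse 7 to 10 of the largest follicles were opened and the oocyte with its cumulus cells was left behind, so that each sample is a pool of the mural GCs of the follicles of 1 mouse. Follicles of different size or health within a mouse are therefore not resolved, and the hour of sampling is not given in the sources used here.

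In the mouse cycle the surge of luteinizing hormone (LH) makes the largest follicles ovulate around the onset of estrus, and what is left of them becomes corpora lutea. In the following days a new group of follicles grows under follicle-stimulating hormone (FSH), which acts on a receptor found in the ovary on GCs. These cells divide, turn androgen from the theca into estradiol and secrete inhibins and activins, and they respond to growth factors of the oocyte and the theca through receptors of the TGF-β family and to IGFs.

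The libraries read only the 3′ end of polyadenylated RNA, and expression is given as CPM, the reads of a gene scaled to the same total of reads on genes in every mouse, with library sizes corrected by the TMM method. Between 5446576 and 8257041 reads per ctrl mouse were counted on genes. A gene is called when its adjusted p from edgeR's quasi-likelihood test was 0.05 or less, and a log2 fold change is positive where diestrus was higher. The p-values measure the spread between mice, with 1 sample per mouse. In a principal component analysis of the 500 most variable genes the stages overlapped on component 1 (23.3% of the variance), with mice in estrus at −4.31 to 35.2 and mice in diestrus at −44.1 to 2.81. Diestrus replicate 1 stood farthest out on both components. It had the lowest depth of the ctrl mice (5446576 reads on genes), on which the number of genes with a read depends. It also had the fewest genes with a read (13899, against 14994 to 17002 in the other 9 mice) and the largest share of reads outside genes (19.4%, against 7.50% to 17.7%). The count of called genes and the genes for which it stood far from the other mice in diestrus are given with and without it.

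Markers of GCs were the most abundant of the 10 marker lists in every mouse. Their summed level over 14 genes, among them Foxl2, Inha and Fshr, was 12052 to 15949 CPM in estrus and 16177 to 24112 CPM in diestrus, and the stages did not overlap. The direction depends on how the markers are weighed, because the mean of their log2 CPM was lower in diestrus by a difference of −0.12 while the log2 ratio of the summed level was 0.52. Of the 14 genes 2 rose (Fshr and Fst) and 1 fell (Amhr2). Other cells left smaller traces. Markers of smooth muscle, pericytes and stroma summed to 939 to 2164 CPM in estrus and to 431 to 1364 CPM in diestrus, and all 14 tested genes of this list had a negative log2 fold change, of which only Col3a1 passed the test. Leukocyte markers summed to 42.2 to 117 CPM against 15.2 to 63.2 CPM, with Cd79a and S100a8 at 0 in every mouse, and none of the 11 tested genes was called. Endothelial markers summed to 50.3 to 114.2 CPM against 33.7 to 70.4 CPM, and red blood cell markers to 292 to 686 CPM against 48.2 to 353 CPM. Theca markers summed to 96.6 to 182 CPM in estrus and 174 to 477 CPM in diestrus. Markers of the oocyte were found at 214 to 817 CPM in estrus and at 83.5 to 951 CPM in diestrus although oocytes had been left behind, those of cumulus cells at 671 to 856 CPM and 677 to 939.8 CPM, those of luteal cells at 3516 to 8024 CPM and 3382 to 11559 CPM, and those of the surface epithelium at 39.9 to 118 CPM and 26.4 to 87.9 CPM. In tissue samples of this kind fewer cells of a type and less RNA per cell cannot be told apart.

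**Figure D1:**
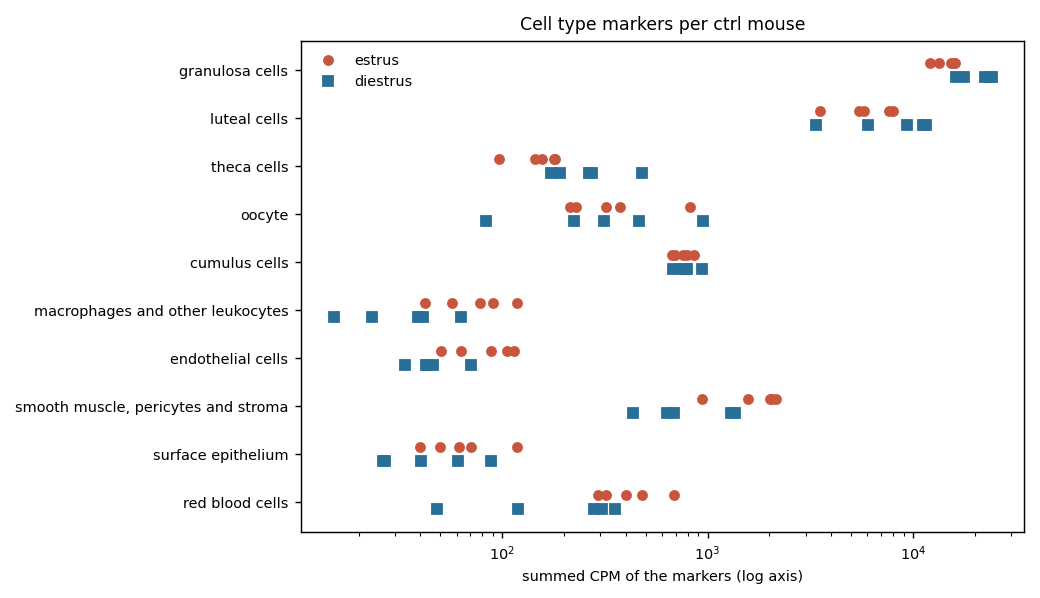
Summed CPM of the markers of 10 cell types (log axis) in each of the 5 ctrl mice in estrus (circles) and the 5 in diestrus (squares). GC markers lie above all other lists and do not overlap between the stages (12052 to 15949 against 16177 to 24112 CPM), while stromal markers reach from 431 to 2164 CPM and overlap.

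Of 12850 genes tested, 175 were called between the stages in ctrl mice (1.36%). In diestrus 74 of these genes (0.576% of the genes tested) were weaker and all the others (0.786%) stronger expressed than in estrus, and an unadjusted p under 0.05 was reached by 1511 genes (11.8%). The median log2 fold change was 1.43 for the genes called higher and −1.36 for those called lower, against 0.004 for all genes tested, and 93 and 63 genes changed by at least 1 on the log2 scale. For 138 of the 175 genes the mice of the stages did not overlap, where diestrus lay entirely above estrus for 78 of them and entirely under it for 60. Such a separation was seen for 3.67% of all tested genes. Without diestrus replicate 1 the count was 176 genes, of which 138 were among the 175. The count fell by more than 1.5 times without diestrus replicate 5 (77 genes), estrus replicate 2 (88), estrus replicate 3 (91), estrus replicate 4 (100) or diestrus replicate 3 (64 higher and 40 lower). In every one of the 10 fits that each left out 1 mouse 61 genes were called, 42 higher and 19 lower.

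**Figure D2:**
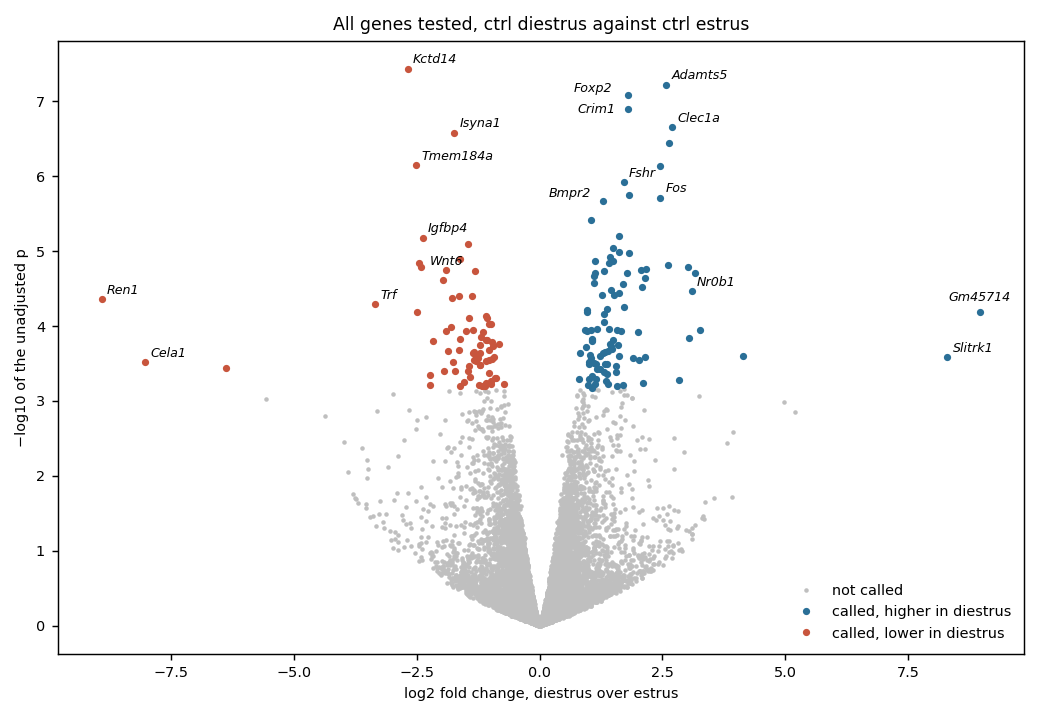
Log2 fold change (diestrus over estrus, x axis) and −log10 of the unadjusted p (y axis) of the 12850 genes tested in ctrl mice. Blue points are the genes called higher and red points the 74 genes called lower in diestrus. The 4 labelled genes farthest from 0 (Ren1, Cela1, Gm45714 and Slitrk1) had no read in any mouse of one stage, so that the x position shown for them depends on the fit and is no measure of size.

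The receptor for FSH was among the 10 clearest increases. Fshr (ENSMUSG00000032937, chromosome 17, 88984952 to 89200675, minus strand, GRCm38) had 260, 288, 438, 272 and 315 reads in the 5 mice in estrus and 617, 1507, 759, 1111 and 993 reads in the 5 mice in diestrus. Scaled to library size, estrus ranged from 38.0 to 55.0 CPM and diestrus reached 202 CPM. Every mouse in diestrus was above every mouse in estrus, and the means were 45.8 ± 6.94 CPM (SD, n = 5) and 149.9 ± 48.6 CPM (SD, n = 5). The log2 fold change was 1.71 with a standard error of 0.23 (adjusted p = 0.00155, edgeR). Of 19 tested genes on the list for follicle growth and the FSH response 4 rose and none fell, with a median log2 fold change of 0.47. Grb14, an adaptor that binds the insulin receptor, rose from 298 ± 144 to 1021 ± 279 CPM (SD, n = 5 per stage) with 148 to 494 CPM in estrus and 764 to 1338 CPM in diestrus (log2 fold change 1.78, adjusted p = 0.0069, edgeR). Fst, which encodes the activin-binding protein follistatin, had 535, 289, 508, 436 and 769.7 CPM in estrus and 1239, 1182, 1635, 985 and 1129 CPM in diestrus. Again no mouse overlapped between the stages (log2 fold change 1.28, standard error 0.23, adjusted p = 0.0101, edgeR). Nppc, the precursor of the C-type natriuretic peptide that keeps oocytes in meiotic arrest, rose from 32.0 ± 12.2 to 81.1 ± 20.6 CPM (SD, n = 5 per stage, adjusted p = 0.0311, edgeR), but in 7 of the 10 fits without 1 mouse it was no longer called (adjusted p up to 0.101). Fst overlaps Gm47040 on the other strand by the bounds of the genes. The strand setting of the counting is not given, and whether any reads were affected was not tested.

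Inhba, Cyp19a1 and Lhcgr varied widely between mice within both stages. Inhba, the β-A subunit of inhibin and activin, had 954, 211, 948, 354 and 1174 CPM in estrus and 3711, 4205, 3032, 671 and 1739 CPM in diestrus. It missed the threshold (log2 fold change 1.88, standard error 0.47, adjusted p = 0.0578, edgeR), and diestrus replicate 4 lay within the range of estrus. DESeq2 (adjusted p = 0.0486) and the edgeR fit of all 20 samples (0.043) called it, while the edgeR fits with the replicate block (0.0683) and the offset (0.0946) did not. Of the 10 fits without 1 mouse only that without diestrus replicate 4 called it (0.019, edgeR). Inhbb (log2 fold change 1.15) and Inha (0.29) were not called either (adjusted p = 0.173 and 0.612, edgeR). Cyp19a1, the aromatase that makes estradiol, had 49.5, 18.5, 29.1, 21.6 and 66.8 CPM in estrus and 215, 226, 75.8, 5.07 and 63.0 CPM in diestrus. Its lowest and its highest value both came from diestrus, and it was not called (log2 fold change 1.66, adjusted p = 0.263, edgeR). Among the 10 fits without 1 mouse Cyp19a1 too was called only without diestrus replicate 4 (adjusted p = 0.0384, edgeR). Lhcgr, the receptor for LH, likewise ranged from 15.3 to 113.05 CPM in diestrus and from 4.85 to 36.1 CPM in estrus (log2 fold change 1.47, adjusted p = 0.374, edgeR). On the list of hormone receptors 2 of 11 tested genes rose, Fshr and Ghr, the receptor for growth hormone. Ghr had 2.66 to 15.8 CPM in estrus and 12.6 to 72.5 CPM in diestrus (adjusted p = 0.0461, edgeR) and stayed called in only 1 of the 10 fits without 1 mouse (adjusted p up to 0.136). None of the 11 tested genes for estrogen synthesis and steroid inactivation and none of the 21 for cholesterol synthesis was called, and 18 of these 21 had a negative log2 fold change.

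In the list for cholesterol uptake and progesterone synthesis 13 of 16 tested genes had a negative log2 fold change, and 1 rose and 1 fell. Scarb1, the receptor that takes up cholesterol from HDL, had 681, 773, 796, 726 and 676 CPM in estrus and 285, 581, 426, 291 and 289 CPM in diestrus. It was lower in all mice in diestrus and is also one of the 12 luteal markers, of which it was the only call (log2 fold change −0.96, standard error 0.21, adjusted p = 0.0293, edgeR). Nceh1, a hydrolase of cholesterol esters, rose from 72.9 ± 9.70 to 129 ± 13.9 CPM (SD, n = 5 per stage) with no mouse in the range of the other stage (log2 fold change 0.83, adjusted p = 0.0271, edgeR). Both calls were lost in most fits without 1 mouse, in 8 of 10 for Scarb1 (adjusted p up to 0.0962) and in 7 of 10 for Nceh1 (up to 0.0789). Star and Cyp11a1, which carry out the first steps of steroid synthesis, had values of −1.37 and −1.16 on the log2 scale and were not called (adjusted p = 0.123 and 0.263, edgeR). Neither were Hsd3b1 (0.34) and Akr1c18 (0.46), the enzyme that inactivates progesterone in the regressing corpus luteum. Cyp17a1, the androgen-producing enzyme of the theca, rose from 9.32 to 12.3 CPM in estrus to 44.4, 233, 107.4, 82.2 and 11.5 CPM in diestrus (log2 fold change 3.17, adjusted p = 0.0069, edgeR) and was called in all 10 fits without 1 mouse, although replicate 5 of diestrus stayed within the range of estrus. Cyp17a1 is itself the first of the theca markers, whose part in its change was not tested, and of the 6 of them that were tested only Cyp17a1 was called.

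Receptors of the BMP family, which receive growth signals from the oocyte and the theca, moved in both directions. Bmpr2 (ENSMUSG00000067336, chromosome 1, 59763400 to 59879014, plus strand) encodes the type 2 receptor for BMPs. It had 669, 444, 721, 671 and 590.0 CPM in estrus and 1718, 1301, 1206, 1697 and 1656 CPM in diestrus. The stages were far apart (619 ± 108.5 against 1516 ± 243 CPM, SD, n = 5), with a log2 fold change of 1.29 and a standard error of 0.18 (adjusted p = 0.00209, edgeR). Bmpr1b, a type 1 receptor used by BMPs and growth factors of the oocyte, rose from 128 ± 34.8 to 316 ± 106.8 CPM (SD, n = 5 per stage, adjusted p = 0.018, edgeR). It was not called without estrus replicate 4 (adjusted p = 0.0533, edgeR). Grem1, a secreted inhibitor of BMPs, had 65.7, 10.5, 62.6, 12.6 and 5.93 CPM in estrus and 232, 469.5, 388, 137 and 77.3 CPM in diestrus. Estrus itself split into higher and lower mice, but all stayed below diestrus (log2 fold change 3.04, standard error 0.62, adjusted p = 0.0223, edgeR). The call of Grem1 was lost without diestrus replicate 3, estrus replicate 2 or estrus replicate 4 (adjusted p up to 0.0622). Amhr2, the receptor for anti-Müllerian hormone, moved the other way, from 319 to 408 CPM in estrus to 118 to 235 CPM in diestrus (log2 fold change −0.96, adjusted p = 0.023, edgeR), and was called in 5 of the 10 fits without 1 mouse. These 4 were the calls among 19 tested genes of the list, and the receptor-regulated Smad genes and the Id targets were not called. Bmp3, a BMP that acts as an antagonist in other tissues, was outside the list and rose from 54.8 to 116.1 CPM in estrus to 165 to 342 CPM in diestrus (log2 fold change 1.81, adjusted p = 0.00207, edgeR). Crim1, which encodes a membrane protein that binds BMPs, rose from 146 ± 28.1 to 509.8 ± 119 CPM (SD, n = 5 per stage, log2 fold change 1.80, adjusted p = 0.000414, edgeR). Bmpr2 and Crim1 overlap other annotated genes, Gm38125 and Gm25069 on the same strand and, for Crim1, Fez2 on the other.

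Among transcription factors of GCs 2 of 20 tested genes rose, Foxo1 and Nr0b1. Foxo1, which restrains growth and steroid synthesis in GCs until FSH removes it from the nucleus, had 1172, 1212, 1010.2, 1006 and 1025 CPM in estrus and 1303, 2391, 2242, 2459.5 and 2273 CPM in diestrus. Replicate 1 of diestrus was close to estrus and the other 4 mice were far above it (log2 fold change 0.98, standard error 0.18, adjusted p = 0.0143, edgeR). Without replicate 1 the log2 fold change of Foxo1 was 1.12 (adjusted p = 0.00212, edgeR). Nr0b1, a nuclear receptor that represses steroidogenic genes, was scarce in estrus (1.09 to 7.30 CPM) and reached 17.1 to 37.3 CPM in diestrus (log2 fold change 3.10, adjusted p = 0.00977, edgeR). Foxp2, a forkhead factor best known from the brain, had 66.0, 56.8, 72.7, 94.6 and 83.1 CPM in estrus and 294, 240.5, 199, 240.0 and 321 CPM in diestrus (log2 fold change 1.79, standard error 0.20, adjusted p = 0.000359, edgeR). No mouse in diestrus came near the range of estrus. Pparg, a nuclear receptor of lipid metabolism, rose from 78.2 ± 24.6 to 164 ± 51.1 CPM (SD, n = 5 per stage, adjusted p = 0.0486, edgeR) and was called in only 2 of the 10 fits without 1 mouse. It was the only call among 14 tested genes for nuclear receptors.

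Immediate early genes, which cells switch on within minutes of a stimulus, had the highest median of the 25 lists, with a log2 fold change of 0.78. Of 18 tested genes 4 rose and none fell. Fos (ENSMUSG00000021250, chromosome 12, 85473890 to 85477273, plus strand), a subunit of the factor AP-1, had 5.41, 8.13, 6.90, 8.68 and 6.11 CPM in estrus and 24.2, 37.2, 28.8, 55.4 and 48.8 CPM in diestrus. Estrus was narrow and diestrus wide, without overlap (log2 fold change 2.46, standard error 0.35, adjusted p = 0.00209, edgeR). Egr1 rose from 29.5 ± 20.1 to 110.2 ± 38.5 CPM (SD, n = 5 per stage, log2 fold change 1.90, adjusted p = 0.029, edgeR) and was called in 5 of the 10 fits without 1 mouse. Klf6 and Ccn2 were lowest by far in diestrus replicate 1, with 53.0 and 27.8 CPM against 124 to 145 and 118 to 145 CPM in the other 4 mice. They rose by 1.40 and 2.83 on the log2 scale (adjusted p = 0.0463 and 0.0434, edgeR), and each was called in only 2 of the 10 fits without 1 mouse (adjusted p up to 0.12 and 0.117). Without diestrus replicate 1 both were called and rose by 1.60 and 3.09 on the log2 scale (adjusted p = 0.0138 and 0.0213, edgeR). DESeq2 gave Ccn2 an adjusted p of 0.0809. Jun (log2 fold change 0.98) and Myc (2.13) were not called (adjusted p = 0.146 and 0.0742, edgeR). The time between death and freezing of the cells, which can move such genes, is not given in the sources used here, and its part was not tested.

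The bases before the start of Fshr and Fos are shown because these genes were measured as the receptor for FSH and as the clearest early gene. Both run 5′ to 3′ over the 250 bases before the RefSeq start (GRCm38.p6), at chr17:89200676-89200925 on the minus strand and at chr12:85473640-85473889 on the plus strand. Capitals mark an E-box (CACGTG) in Fshr and, in Fos, the core of the cAMP response element (TGACG) at 2 places and a TATA box (TATAAA).
Fshr: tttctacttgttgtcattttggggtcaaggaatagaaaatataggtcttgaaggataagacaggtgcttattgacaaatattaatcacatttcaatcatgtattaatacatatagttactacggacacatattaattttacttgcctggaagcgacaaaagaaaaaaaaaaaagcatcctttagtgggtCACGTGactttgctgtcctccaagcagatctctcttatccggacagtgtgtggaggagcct
Fos: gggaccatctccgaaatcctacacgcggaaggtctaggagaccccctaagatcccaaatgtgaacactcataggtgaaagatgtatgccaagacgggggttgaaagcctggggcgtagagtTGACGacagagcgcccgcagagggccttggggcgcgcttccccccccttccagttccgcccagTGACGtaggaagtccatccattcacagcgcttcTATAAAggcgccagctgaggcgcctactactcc
The E-box of Fshr lies at −61 to −56 from the start, and the marked letters of Fos begin at −129, −66 and −33. Both strands were searched over 250 bases before and 50 after the start. The RefSeq table holds a promoter for 9492 of the tested genes. Of these, 12.1% held an E-box, 35.8% the core of the cAMP response element and 8.47% a TATA box, against 11.9%, 29.9% and 19.4% of the 67 genes called higher that have one and 14.0%, 21.1% and 17.5% of the 57 called lower. These shares describe letters and not binding sites.

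Among the secreted proteins and the matrix the directions were mixed. Adamts5, a protease that cuts the proteoglycan versican, had one of the lowest p of all genes. It had 35.8, 28.5, 29.7, 53.6 and 62.5 CPM in estrus and 133, 242, 254, 329.6 and 295 CPM in diestrus. All mice in diestrus were above those in estrus, with a log2 fold change of 2.58 and a standard error of 0.28 (adjusted p = 0.000359, edgeR). Prss23, a serine protease, rose from 43.7 to 110.3 CPM in estrus to 107.2 to 519 CPM in diestrus (log2 fold change 2.09, adjusted p = 0.00892, edgeR). Mmp2, a gelatinase, fell from 20.5 to 72.5 CPM in estrus to 4.15 to 16.9 CPM in diestrus (log2 fold change −2.18, adjusted p = 0.0226, edgeR). Timp1, an inhibitor of such proteases, fell from 27.3 to 129 CPM in estrus to 9.74 to 37.9 CPM in diestrus (log2 fold change −1.87, adjusted p = 0.0271, edgeR). These were the 4 calls among 17 tested genes for matrix proteases and their inhibitors. Of 21 tested matrix genes 3 fell and none rose, and the median of −0.93 was the lowest of the 25 lists. Sparc, which binds collagen, had 338, 756, 698, 1129 and 943 CPM in estrus and 174, 365, 396, 192 and 248 CPM in diestrus (log2 fold change −1.49, adjusted p = 0.0193, edgeR). Only replicate 1 of estrus lay within the range of diestrus. Col3a1 and Col4a1, collagens of the stroma and of the basal lamina, fell by 1.64 and 1.54 on the log2 scale (adjusted p = 0.0265 and 0.0444, edgeR).

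The fall of these matrix genes went along with lower stromal markers in diestrus (a log2 ratio of −0.99 for the summed level). The stromal list shares Col1a1, Col1a2, Col3a1 and Dcn with the matrix list, so that both rest in part on the same values. The part of stromal cells was not tested. The calls of Sparc (without diestrus replicate 5 or estrus replicate 4), Mmp2 (without either of these or diestrus replicate 4) and, in 7 of 10 fits, Timp1 and Col4a1 were lost without 1 mouse, with adjusted p up to 0.0637, 0.0812, 0.072 and 0.128, and Col3a1 was called in 5 of the 10 fits. Timp1 and Col4a1 overlap Syn1 and Col4a2 on the other strand.

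Of the binding proteins of the IGFs, Igfbp4 and Igfbp2 fell, the former with one of the 10 lowest p of the genes called lower. Igfbp4 (ENSMUSG00000017493, chromosome 11, 99041244 to 99054392, plus strand), which keeps IGFs from their receptor, had 225, 448, 391, 472 and 499 CPM in estrus and 48.2, 168, 55.2, 32.1 and 86.4 CPM in diestrus. The highest mouse in diestrus was below the lowest in estrus, and the log2 fold change was −2.38 with a standard error of 0.37 (adjusted p = 0.00532, edgeR). Igfbp2 fell as well, from 66.6 ± 20.4 to 21.6 ± 9.47 CPM (SD, n = 5 per stage, log2 fold change −1.62, adjusted p = 0.0223, edgeR), and was called in 6 of the 10 fits without 1 mouse. Irs1, a substrate of the insulin and IGF receptors, rose from 18.9 to 55.2 CPM in estrus to 51.4 to 179.9 CPM in diestrus (log2 fold change 1.67, adjusted p = 0.0193, edgeR). It was not called without diestrus replicate 3, diestrus replicate 5 or estrus replicate 2 (adjusted p up to 0.0583). These were the 3 calls among 12 tested genes of the IGF system, and Igf1, Igf1r and Insr were not among them.

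Other decreases belonged to genes of several kinds. Kctd14 (ENSMUSG00000051727, chromosome 7, 97451323 to 97459557, plus strand), a protein with a tetramerization domain like that of potassium channels, had 914, 688, 1017, 817 and 517 CPM in estrus and 212, 122, 85.9, 71.7 and 123 CPM in diestrus. It fell by 2.69 on the log2 scale with a standard error of 0.28 (adjusted p = 0.000359, edgeR), the lowest p of all genes. Isyna1, which makes inositol from glucose, fell from 429 ± 61.2 to 128 ± 33.7 CPM (SD, n = 5 per stage, log2 fold change −1.74, adjusted p = 0.000563, edgeR). Fscn1, which bundles actin, had 2093, 1442, 1466, 1129.9 and 897 CPM in estrus and 581, 577, 483, 226 and 432 CPM in diestrus (log2 fold change −1.61, adjusted p = 0.0069, edgeR). Wnt6, a secreted Wnt ligand, fell from 36.7 ± 8.76 to 6.70 ± 3.69 CPM (SD, n = 5 per stage, log2 fold change −2.46, adjusted p = 0.0069, edgeR) and was the only call among 20 tested genes of the Wnt pathway. Wnt4 had 29.7 to 179 CPM in estrus and 0 to 26.7 CPM in diestrus and missed the threshold (adjusted p = 0.0533, edgeR). Angptl4, an inhibitor of lipoprotein lipase, went from 131 to 191 CPM in estrus down to 44.6 to 85.8 CPM in diestrus (log2 fold change −1.31, adjusted p = 0.0069, edgeR). Tmem184a, Tmem158 and Pdpn, genes of membrane proteins, had log2 fold changes of −2.51, −2.41 and −1.91. Trf, which encodes the iron carrier transferrin, fell from 75.1 ± 38.7 to 7.23 ± 5.38 CPM (SD, n = 5 per stage, log2 fold change −3.35, adjusted p = 0.0125, edgeR). All genes of this paragraph but Wnt4 were called in all 10 fits without 1 mouse.

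**Figure D3:**
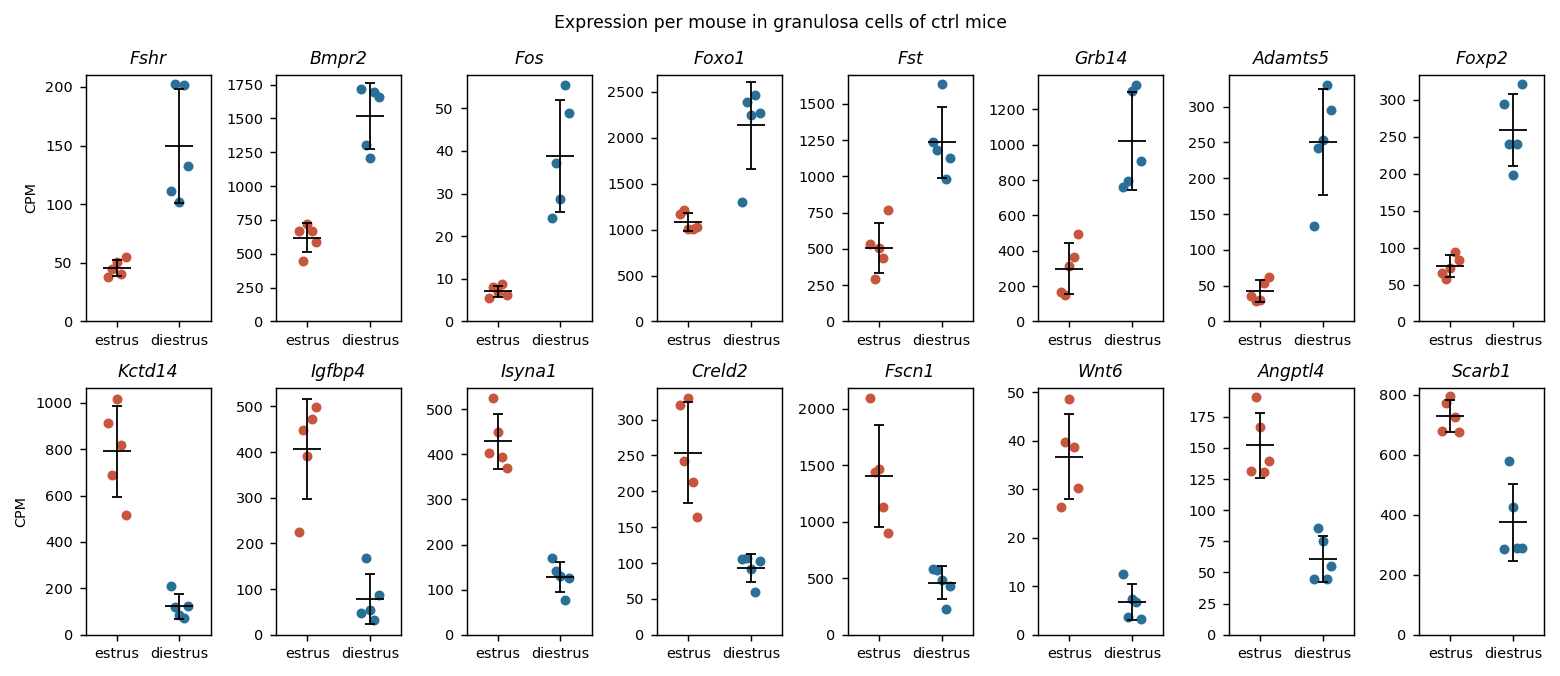
Expression in CPM (y axis, from 0) of 16 called genes in each of the 5 ctrl mice in estrus (red) and the 5 in diestrus (blue). The bars give the mean and the SD of each stage. The stages do not overlap for any of the 16 genes, and diestrus replicate 1 is near estrus for Foxo1 (1303 against at most 1212 CPM).

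Further increases concerned a receptor, a protease and proteins of the cytoskeleton and chromatin. Clec1a, a lectin-like receptor, rose from 7.45 to 11.6 CPM in estrus to 35.7 to 98.5 CPM in diestrus (log2 fold change 2.69, adjusted p = 0.000563, edgeR). Masp1, a protease of the complement system, rose from 22.9 ± 4.17 to 126 ± 51.5 CPM (SD, n = 5 per stage), with diestrus replicate 4 at 38.9 CPM and the other 4 mice at 132 to 177 CPM. Fhdc1, a regulator of actin and microtubules, rose from 12.8 to 38.2 CPM in estrus to 74.3 to 183 CPM in diestrus. Masp1 and Fhdc1 rose by 2.46 and 2.63 on the log2 scale (adjusted p = 0.00103 and 0.000657, edgeR). Lrrtm3, a leucine-rich protein of synapses, and Tox, a chromatin protein known from T cells, rose by 3.27 and 4.14 on the log2 scale (adjusted p = 0.0193 and 0.0285, edgeR). The call of Lrrtm3 was lost without diestrus replicate 4 or diestrus replicate 5 (adjusted p up to 0.065), and Tox was called in 4 of the 10 fits.

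A few genes were detected almost entirely in 1 stage. They passed the filter on low counts only through the 5 mice of that stage, so that their lack of overlap was set by the filter. Ren1, which encodes renin, the enzyme that opens the renin-angiotensin cascade, had 4.68, 3.75, 6.90, 15.1 and 14.0 CPM in the 5 mice in estrus, of which the lowest stands for 24 reads, and 0 reads in each mouse in diestrus. Set against a floor of 3 reads per mouse in diestrus (0.458 CPM), its mean in estrus (8.88 ± 5.31 CPM, SD, n = 5) was 19.4 times as high (adjusted p = 0.0109, edgeR). Cela1, an elastase, had 19 to 47 reads in estrus and none in diestrus (adjusted p = 0.0304, edgeR). Its mean in estrus (4.83 ± 2.35 CPM, SD, n = 5) was 10.5 times the floor. Siglece, a receptor of myeloid cells, had 12 to 86 reads against 0 to 2 (adjusted p = 0.0335, edgeR). Its mean in estrus (6.33 ± 5.32 CPM, SD, n = 5) was 13.8 times the floor, with replicate 5 highest at 15.0 CPM. The summed leukocyte markers had a log2 ratio of −1.08 between the stages (42.2 to 117 against 15.2 to 63.2 CPM), and their part in the change of Siglece was not tested. In the other direction, Slitrk1, the gene of a neuronal membrane protein, had 12 to 75 reads in diestrus and none in estrus (at least 13.1-fold higher, adjusted p = 0.0288, edgeR), and Gm45714 had 17 to 162 against none (at least 20.8-fold higher, adjusted p = 0.0143, edgeR). Ren1 was called in all 10 fits without 1 mouse, Gm45714 was lost without diestrus replicate 5 (adjusted p = 0.0661, edgeR), and Slitrk1, Cela1 and Siglece were called in 2, 1 and 1 of the 10 fits. Agt, the precursor cut by renin, was picked with its values known and fell from 86.3 to 199.8 CPM in estrus to 26.6 to 64.7 CPM in diestrus (log2 fold change −1.44, adjusted p = 0.0161, edgeR). The multiples of the floor are those of the mean of a stage and are no lower limit for single mice. The floor covers counting error only.

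Several of the named genes overlap another annotated gene by their bounds, introns included. Whether reads of these genes were mixed, or left out as ambiguous, was not tested. Besides Fst, Crim1, Timp1 and Col4a1, an overlap on the other strand was found for Prss23 (Prss23os), Fen1 (Tmem258), Irs1 (Gm9747), Wnt6 (Gm29539), Masp1 (Rtp4), Ccn2 (Gm15270), Tox (Gm11802), Lrrtm3 (Ctnna3) and Tmem184a (Mafk). On the same strand Foxo1, Foxp2, Trf, Scarb1, Col3a1, Nceh1 and Gm45714 overlap other gene models.

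Few genes of DNA replication passed the test, and those that did were lower in diestrus. All 25 tested genes of this list had a negative log2 fold change, with a median of −0.64 against 0.004 for all genes tested, and 3 passed the test. Fen1, the nuclease that trims Okazaki fragments, had 107.7, 97.3, 86.2, 84.1 and 93.4 CPM in estrus and 52.5, 49.1, 55.6, 35.5 and 37.7 CPM in diestrus. Both stages were narrow and did not overlap (log2 fold change −1.02, standard error 0.20, adjusted p = 0.0185, edgeR). Mcm5 and Mcm7, subunits of the replicative helicase, fell by 1.03 and 0.88 on the log2 scale (adjusted p = 0.0265 and 0.0417, edgeR). Their calls were lost in 7 of the 10 fits without 1 mouse, with adjusted p up to 0.0843 and 0.125, and that of Fen1 without diestrus replicate 5 (0.0637). With an offset for GC content and gene length, described below, Fen1, Mcm5 and Mcm7 were not called (adjusted p = 0.078, 0.077 and 0.156, edgeR). Reads of Mcm7 may be shared with its near-identical copy Gm5487, and the bounds of Mcm7 overlap Cops6 on the other strand. Tk1, the thymidine kinase of S phase, missed the threshold with 60.0 to 96.5 CPM in estrus and 11.8 to 50.3 CPM in diestrus (adjusted p = 0.0511, edgeR). Of 25 tested genes of mitosis 23 had a negative log2 fold change and none was called, and the same held for 13 of 17 G1 cyclins and inhibitors. Mki67 and Top2a, common markers of dividing cells, had values of −0.42 and −0.55 on the log2 scale and were not called (adjusted p = 0.812 and 0.416, edgeR). Dtl and Ung, genes of replication and base repair that are not on the list and were picked with their values known, fell by 0.82 and 1.10 on the log2 scale (adjusted p = 0.024 and 0.0299, edgeR).

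Few chaperones of the endoplasmic reticulum passed the test. Of 21 tested genes for heat shock and the unfolded protein response 19 had a negative log2 fold change (median −0.56), and 2 passed the test, Sdf2l1 and Calr, which fell. Neither was called with the offset for GC content and gene length (adjusted p = 0.0553 and 0.133, edgeR). Creld2, a disulfide isomerase outside the list, had 320.0, 242, 331, 213 and 165 CPM in estrus and 105.5, 106.7, 91.2, 59.0 and 102.5 CPM in diestrus. The stages did not overlap (log2 fold change −1.45, standard error 0.23, adjusted p = 0.00605, edgeR). Sdf2l1, a partner of the chaperone Hspa5, had 143, 78.2, 157, 83.5 and 148 CPM in estrus and 63.1, 36.0, 53.1, 45.1 and 37.6 CPM in diestrus (log2 fold change −1.38, standard error 0.25, adjusted p = 0.0101, edgeR). Both were called in all 10 fits without 1 mouse. Calr, the lectin chaperone calreticulin, fell from 2513 ± 451 to 1345 ± 374 CPM (SD, n = 5 per stage, log2 fold change −0.90, adjusted p = 0.0419, edgeR) and was called in 2 of the 10 fits (adjusted p up to 0.12). Its reads may be shared with the copy Calr-ps. Pdia4 (−0.89) and Hspa5 (−0.63) were not called (adjusted p = 0.0509 and 0.135, edgeR). Manf, which is secreted under stress of this compartment, and Fkbp11, a prolyl isomerase, were picked with their values known and fell by 1.06 and 1.10 on the log2 scale (adjusted p = 0.0161 and 0.0461, edgeR).

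The start regions of Creld2 and Calr are shown because both genes fell and both hold the element through which stress of the endoplasmic reticulum is known to act, CCAAT and CCACG with 9 bases between them. The element was looked for after the values had been seen. The sequences run 5′ to 3′ over the 250 bases before the RefSeq start (GRCm38.p6), at chr15:88819396-88819645 on the plus strand and at chr8:84846932-84847181 on the minus strand, and capitals mark the element, which lies in both on the opposite strand.
Creld2: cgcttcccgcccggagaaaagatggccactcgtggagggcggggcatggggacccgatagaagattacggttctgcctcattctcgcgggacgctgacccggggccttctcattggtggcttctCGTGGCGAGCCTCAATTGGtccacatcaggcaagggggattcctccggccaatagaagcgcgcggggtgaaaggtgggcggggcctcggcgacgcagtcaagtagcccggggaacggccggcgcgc
Calr: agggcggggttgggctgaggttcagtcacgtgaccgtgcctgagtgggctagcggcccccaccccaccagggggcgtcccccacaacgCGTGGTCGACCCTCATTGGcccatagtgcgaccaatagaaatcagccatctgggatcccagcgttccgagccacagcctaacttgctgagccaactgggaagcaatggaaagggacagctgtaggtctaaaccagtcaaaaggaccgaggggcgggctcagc
It begins at −126 in Creld2 and at −162 in Calr. Both strands were searched from 250 bases before to 50 after the start. The element was found in 2 of the 57 promoters of genes called lower, these 2, in none of the 67 of genes called higher, in 17 of the 9492 of all tested genes (0.179%) and in 39 of all 32851 windows (0.119%). Of the 18 promoters of tested genes on the list for heat shock and the unfolded protein response 3 held it (16.7%), those of Calr, Hsp90b1 and Hspa5, and the latter 2 genes were not called.

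Of the 25 gene lists 14 had at least 1 call, and 34 of 407 tested genes on any list were called (8.35%), 19 higher and 15 lower, where the share over all genes was 1.36%. The lists name genes that are studied in GCs, and they were chosen with earlier results of these data known. A share above that of all genes may therefore be built in, and the shares are given only as a description. Lists without a call were those for apoptosis and atresia (median 0.05 over 21 tested genes), ovulation and luteinization (−0.41 over 16), the circadian clock (0.29 over 18), prostaglandins (−0.37 over 14), the Notch pathway (0.35 over 9), hypoxia and glycolysis (−0.43 over 21, of which 20 were negative) and the interferon response with MHC class I (−0.03 over 17), besides those of mitosis, of G1 cyclins, of estrogen synthesis and of cholesterol synthesis named above. Pgr and Ptgs2, which GCs induce at ovulation, had too few reads to be tested, with at most 4.04 and 3.13 CPM in any ctrl mouse. Amh, a product of small growing follicles, had 0 to 14.0 CPM in estrus and 0 to 2.72 CPM in diestrus (adjusted p = 0.451, edgeR).

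**Figure D4:**
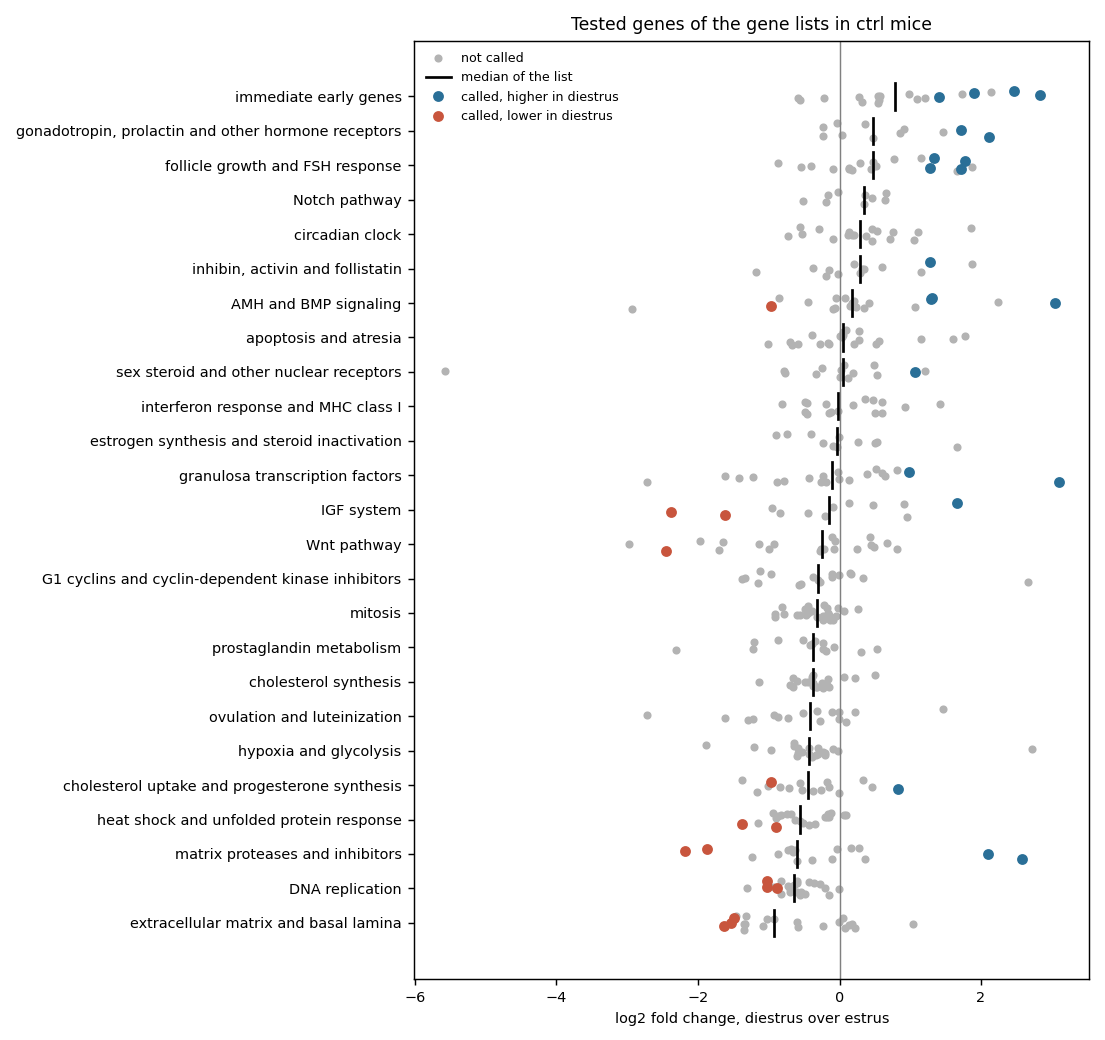
Log2 fold change (diestrus over estrus, x axis) of the tested genes of 25 gene lists in ctrl mice, 1 point per gene, with lists ordered by their median (black bars). Grey points are not called, blue points are called higher and red points lower in diestrus. The median runs from 0.78 for immediate early genes to −0.93 for matrix genes, and all 25 points for DNA replication lie below 0.

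The called genes also differed in a property that the choice of samples did not use. Genes called higher in diestrus were long, with a median gene length of 84886 bases and a transcript GC content of 46.3%, and genes called lower were short, with 12564 bases and 54.3%, while the medians of all genes tested were 22455 bases and 49.2%. Among the longest 20% of genes (68664 bases and more) 54 genes were called higher (2.10% of 2570) and 5 lower (0.195%), and the median log2 fold change of these genes was 0.15. Among the genes of 6421 to 15780 bases 12 were called higher and 26 lower, with a median of −0.08. The share of reads on the longest 20% of genes was 13.4% to 16.3% in estrus and 14.4% to 19.96% in diestrus (exact permutation test, two-sided, p = 0.0714, where the smallest possible is 0.00794), and the share of reads outside genes was 7.50% to 14.7% and 7.98% to 19.4% (p = 0.262, same exact permutation test). When the trend with length and GC content was taken out of each sample, an alternative added after the data had been seen, 98 genes were called (57 higher and 41 lower), of which 89 were among the 175. All 175 genes kept their sign. Fshr (log2 fold change 1.46, adjusted p = 0.0094, edgeR), Fos (2.49), Bmpr2 (1.02), Foxo1, Fst, Grb14, Igfbp4, Sparc, Kctd14 and Creld2 remained called, as did others. The genes described above and named by rule that were no longer called were Sdf2l1, Calr, Mcm5, Mcm7, Fen1, Amhr2, Bmpr1b, Pparg, Nceh1, Igfbp2, Ghr, Klf6, Tox, Ccn2 and Siglece, with adjusted p of 0.0501 to 0.156 (edgeR). Their log2 fold changes kept their sign, with Sdf2l1 at −1.17 (−1.38 without the offset), Calr at −0.86 (−0.90), Mcm5 at −0.91 (−1.03), Igfbp2 at −1.30 (−1.62) and Bmpr1b at 0.93 (1.30). Whether the length trend arises in the cells or in the libraries was not tested.

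The same comparison in FL1 mice, in which no sample is shared with the ctrl comparison, gave 29 called genes of 13114 tested (0.221%), 10 higher and 19 lower in diestrus. Of the 175 genes called in ctrl mice 172 were tested in FL1 mice, and 158 of them (91.9%) had the same sign there, against 61.7% of the 12285 genes tested in both lines. For 97 the sign was the same and the unadjusted p in FL1 mice was under 0.05. The median log2 fold change of the genes called higher was 1.43 in ctrl and 0.91 in FL1 mice, and that of the genes called lower was −1.35 and −0.56. The change was smaller in FL1 mice for 159 of the 172 genes, but these genes were chosen for their change in ctrl mice, and conversely, of the 28 genes called in FL1 mice and tested in ctrl mice 23 changed less in ctrl mice. Called in both lines were 9 genes (5.14% of the calls in ctrl and 31.0% of those in FL1 mice), Foxp2, Fhdc1, Prss23 and Itih5 with higher and Trf, Ak1, Abcb1b, Mmp2 and Tinagl1 with lower values in diestrus.

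Side by side, some of the leading genes had like values in both lines. Grb14 had a log2 fold change of 1.78 in ctrl and 1.88 in FL1 mice, Foxo1 of 0.98 and 0.94, and Sparc of −1.49 and −1.45. Others differed in value. Fshr had 1.71 in ctrl and 0.96 in FL1 mice, Fos 2.46 and 1.17, Kctd14 −2.69 and −1.08, Fscn1 −1.61 and −0.31 and Creld2 −1.45 and −0.48. In the test of the difference itself, the interaction of line and stage over all 20 samples, none of 14938 genes was called by edgeR (lowest adjusted p = 0.933), and 710 genes (4.75%) had an unadjusted p under 0.05. DESeq2 called 1 gene and limma-voom none. The unadjusted p of the interaction was 0.0577 for Fshr, 0.0518 for Fos, 0.000335 for Kctd14 and 0.000856 for Fscn1 (edgeR, not adjusted), and it was under 0.05 for 62 of the 175 genes. A difference of the stage effect between the lines was thus not shown for any of these genes after adjustment, and it is not shown to be absent. Lhcgr had log2 fold changes of 1.47 in ctrl and −0.92 in FL1 mice, neither of them called.

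**Figure D5:**
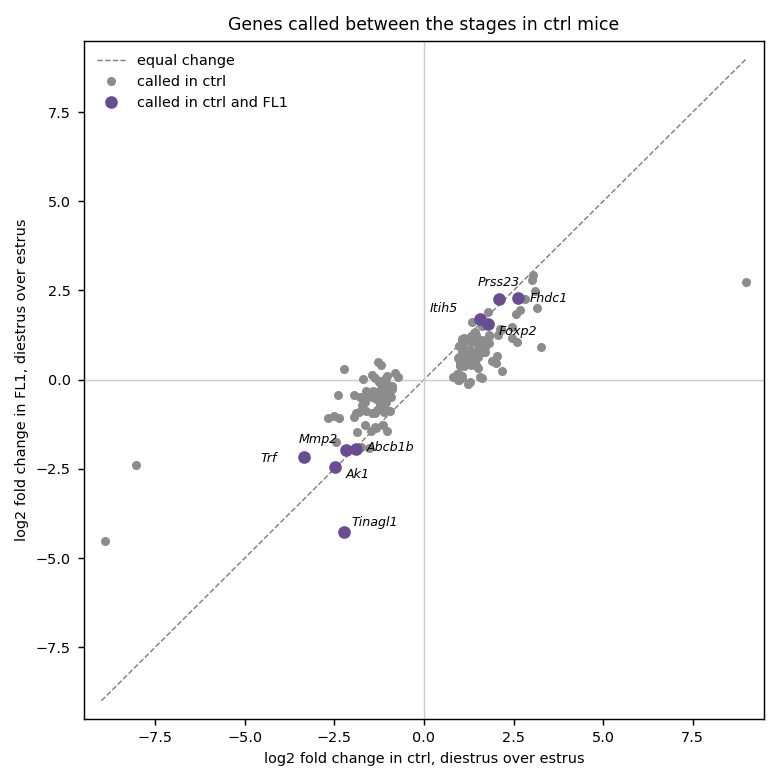
Log2 fold change between diestrus and estrus in ctrl mice (x axis) and in FL1 mice (y axis) of the 172 genes that were called in ctrl and tested in FL1 mice. The dashed line marks equal change, and the 9 labelled genes were called in both lines. Of the points 158 lie in the quadrants of equal sign and 159 are closer to 0 in FL1 than in ctrl mice. The 3 points farthest out on the x axis (Ren1, Cela1 and Gm45714) had no read in 1 stage of the ctrl mice, so that their x position depends on the fit.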

How the data were processed

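Granulosa cells of 20 mice, 5 per line and stage, were profiled by 3′ end sequencing of polyadenylated RNA (QuantSeq, Illumina). According to the study's methods and the submitters' processing notes, the authors aligned trimmed reads with STAR to GRCm38 and deposited raw counts of reads per Ensembl gene for each mouse, and counts are the only unit used here. The strand setting of the counting is not given in the sources used here. Reads matching several places (24.0% to 32.8% of all reads in ctrl mice), reads outside genes and ambiguous reads were not counted on a gene, so that genes with near-identical copies may be undercounted. The RNA extraction kit is named differently in the labels (TRIzol) and in the methods (RNeasy).

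Of 55487 gene identifiers 55227 had a symbol in GENCODE M21. Genes with too few reads were removed with filterByExpr at its defaults (at least 10 reads scaled to the median library in the smaller group, 15 in total). The 10 ctrl samples were fitted with edgeR 4.0.16 (TMM scaling, quasi-likelihood test, R 4.3.3), and p-values were adjusted by Benjamini and Hochberg over all tested genes. The 10 FL1 samples were fitted in the same way, and the difference of the stage effect in a fit of all 20. Alternatives were DESeq2 1.42.0, limma-voom 3.58.1 with sample weights, RLE scaling, no filter, a minimum mean count of 10, a robust fit, all 20 samples in 1 fit, the replicate number as a block, each replicate left out and, added after seeing the data, an offset for GC content and gene length. The default edgeR, DESeq2 and limma-voom fits of the stage effect and the edgeR fit of the interaction were first tested on simulated data. The other alternatives were not. CPM values are on the TMM scale of the same fit, and the depth of 5446576 to 8257041 reads on genes limits the precision for weakly expressed genes.

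The samples compared and the gene lists were chosen with earlier results of these data known. Genes were named by rule. From the called genes without overlap between the stages and with a mean of at least 10 counts these were, per direction, the 10 with the lowest p and the 5 with the largest fold change. From each list they were the up to 4 tested genes with the lowest p, from the interaction the 3 with the lowest p per direction, and 16 genes of steroid synthesis, hormone receptors, inhibins, ovulation and cell division (among them Fshr, Lhcgr, Cyp19a1 and Star) were named whatever their values. The report prints a part of them. Genes outside the rule were named with their values known, and these are the ones the report says so of, the markers, the neighbours of overlapping genes, list members given as not called and, among the genes called in both lines, Ak1, Abcb1b, Tinagl1 and Itih5. Promoter sequences are from RefSeq (GRCm38.p6). Gene overlaps were read from GENCODE M21, and copies were looked for with BLAST 2.17.0 over the last 500 bases of transcripts (at least 90% identity over 250 bases).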

Additional observations from a re-analysis of the deposited data

Results flagged for a closer look

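Within a group of 5 mice, 1 mouse stood far from the other 4 (by Dixon's test of the gap) in 15 of the 288 groups of values examined, and chance alone flags about 1 in 20 groups. Diestrus replicate 1, which also had the lowest depth and the fewest detected genes of the ctrl mice, was far below the other mice in diestrus for Foxo1 (1303 CPM, next 2242), Klf6 (53.0 CPM, next 124) and Ccn2 (27.8 CPM, next 118). Diestrus replicate 3 was highest for the nuclear receptor genes Nr1h3 (0.672 CPM) and Pgr (1.75 CPM), both at 0 in the other 4 mice, diestrus replicate 4 for the hexokinase gene Hk2 (101.8 CPM, next 73.0), and diestrus replicate 5 for Akr1c18 (307 CPM, next 142) and Siglece (0.268 CPM, the others at 0). In estrus, replicate 5 was highest for Fhdc1 (38.2 CPM, next 18.3) and Bmp3 (116.1 CPM, next 65.0), replicate 3 for the cell cycle genes Mcm7 (479 CPM, next 355) and Cdk1 (567.5 CPM, next 427), replicate 2 for the interferon target Bst2 (388 CPM, next 281) and for Ptgs2 (3.13 CPM, the others at 0), and replicate 4 for the summed oocyte markers (817 CPM, next 375). No cause of these single values was tested.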

How the results depend on the processing

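The number of genes called in ctrl mice (175) was 526 with DESeq2, 348 with no filter on low counts and 98 with the offset for GC content and gene length. It stayed within 1.5 times with RLE scaling (175), the mean filter (178), a robust fit (199), limma-voom (205) and all 20 samples in 1 fit (163). Calls on gene lists (34) became 59 with DESeq2, 61 with no filter and 22 with the offset. The share of the genes called in ctrl mice that were called in FL1 mice too (5.14%, 9 genes) became 11.7% with all 20 samples in 1 fit, 12% with DESeq2, 30.2% with no filter and 15.6% with limma-voom, and for the difference between the lines (0 genes) DESeq2 called 1 and the fit with no filter 6. Of the marker lists 1 had no overlap between the stages by its sum and 0 by the mean of log2 CPM. When single mice were left out, the number of genes ran from 77 to 176, that of named genes from 32 to 57 (56 with all mice), that of list genes from 16 to 38, the share called in both lines from 4.96% to 7.95%, that of interaction calls from 0 to 0 and that of marker lists without overlap from 1 to 3. No named gene that was called in the main fit or in an alternative changed its direction between them. For the other called genes the direction was followed only with the offset, where all 175 kept their sign. By the mean of log2 CPM in place of the summed CPM the difference between the stages changed its sign for the markers of granulosa cells (0.52 to −0.12), oocytes (0.06 to −0.06) and cumulus cells (0.06 to −0.25). The causes of these changes were not tested.

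With the replicate block 158 genes were called. Mice with the same replicate number deviated together only weakly or not at all (r from −0.093 to 0.087 for the 5 numbers, across genes), so the numbers do not pair the mice.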
